A study of Mus musculus with 7 samples.

Results

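Transcripts of 9 genes that mark microglia (Cx3cr1, P2ry12, Tmem119, Csf1r, Itgam, Trem2, C1qa, C1qb and C1qc) were followed through RNA drawn from ERα neurons of the medial preoptic area. The genes were chosen by symbol, and all 9 were among the 24062 gene symbols in the count tables. All 9 reached at least 3 counts in every sample and passed the filter for testing, as did 14407 genes in all.

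The samples came from slices of female adult Esr1-ZsGreen mice, a reporter line in which ERα cells fluoresce green. ZsGreen-positive neurons were recorded while the bath was warmed by 5 °C, their contents were drawn into the recording pipette, and 2 neurons with like responses were pooled as 1 sample. The 4 temperature-responsive samples hold neurons whose firing rate rose past the cutoff of the study with warming, and the 3 non-responsive samples hold neurons that did not pass it. The adult age, the sex and the cutoff are from the methods of the study. Both groups share the reporter line, the slicing, the warming, the amplification kit and the sequencing lane, and the labels do not say which samples share an animal, so that the p-values below measure the spread between these samples.

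Total counts were 1914497 to 2814360 in temperature-responsive samples and 3309361 to 5125280 in non-responsive samples, whereas more genes were detected (1 count or more) in the former (19852 to 21177) than in the latter (17818 to 19820), so that depth and group cannot be told apart. Xist had 2 to 14 counts and the Y-linked gene Ddx3y 684 to 1150 counts per sample, which goes against the stated use of females. Esr1, which encodes ERα, had 10 to 27 counts per sample, and a list of 9 neuron genes summed to between 3377 and 4104 CPM per sample (CPM, counts scaled to a common library total after trimmed mean of M values, or TMM, normalization).

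Microglia are the resident macrophages of the brain. In the healthy tissue they survey their surroundings with fine processes, sense nucleotides and chemokines released by other cells, and depend on signals through the CSF1 receptor for survival. They are also the main source in the brain of C1q, the protein that starts the classical complement cascade and is built from A, B and C chains. In a pipette drawn from a neuron, their transcripts are those of another cell type.

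The summed level of the 9 genes was nearly the same in all samples. It was 581, 584, 649 and 597 CPM in temperature-responsive replicates 1 to 4 and 627, 617 and 638 CPM in non-responsive replicates 1 to 3. The groups overlapped, and the highest sample was 1.12 times the lowest. The means were 603 ± 31.3 CPM (SD, n = 4) and 627 ± 10.8 CPM (SD, n = 3), a log2 ratio of -0.057. The coefficient of variation over the 7 samples was 4.31%, beside 2.38% for counting error alone on 1085 to 3279 counts per sample. With upper quartile normalization the log2 ratio was 0.0094, and with library size only it was -0.12. In RNA pooled from aspirated contents, fewer microglia and less RNA per microglia cannot be told apart, so that a level here is an amount of transcript and not a number of cells.

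**Figure D1:**
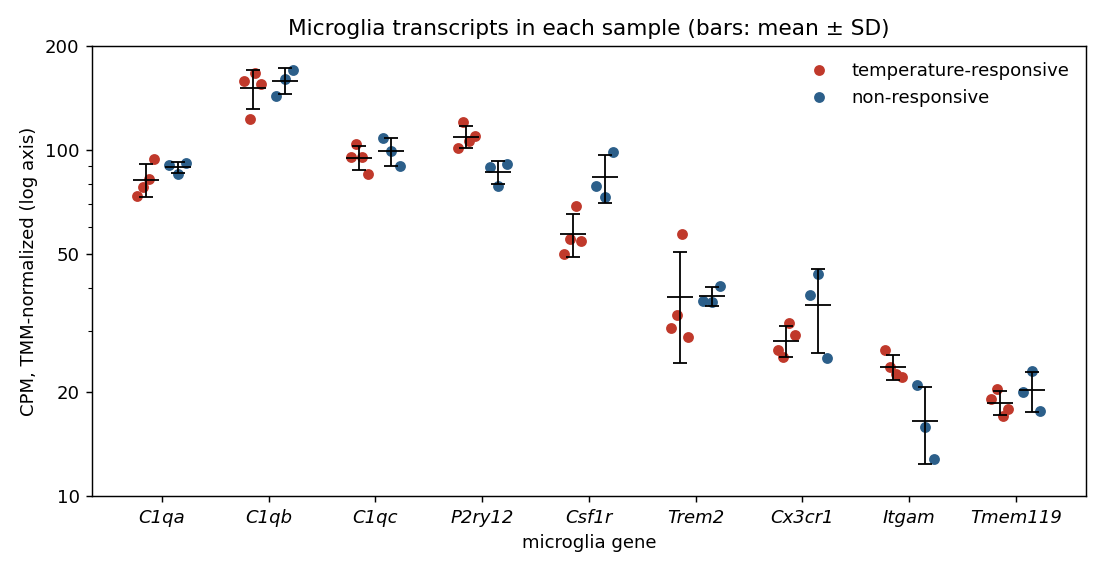
CPM of the 9 microglia genes (log axis) in each of 4 temperature-responsive (red) and 3 non-responsive (blue) samples, with the mean and SD of each group as black bars. The groups overlap for C1qa, C1qb, C1qc, Trem2, Cx3cr1 and Tmem119 and are separate for P2ry12, Csf1r and Itgam.

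Of the 9 genes, 2 passed an adjusted p of 0.05 in edgeR's quasi-likelihood test, against 30.0% of the 14407 genes tested. P2ry12 was higher and Csf1r lower in temperature-responsive samples. In this fit 15.1% of all genes were higher and 14.9% lower, and 35.2% of the 7681 genes in the same range of mean CPM passed. The same 2 genes passed in DESeq2, where 26.4% of all genes did, and with the replicate number as a block, where 28.6% did. The 2 groups were separate for 3 of the 9 (P2ry12, Itgam and Csf1r), against 35.4% of all genes tested. The median log2 fold change of the 9 genes was -0.07 and that of all genes tested was 0.007. When detected genes per sample entered the fit as a covariate, none of the 9 genes passed, with 1 of them at an unadjusted p under 0.05, whereas 1 gene of 14407 did (0.00694%).

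Per kilobase of exon, the C1q chains had the highest mean levels of the 9 genes. C1qa, C1qb and C1qc encode the 3 chains of the molecule and lie side by side on chromosome 4 of mm10, C1qb at chr4:136880129-136886187, C1qc at chr4:136889804-136893065 and C1qa at chr4:136895917-136898803, all on the minus strand and with no exonic base shared with another annotated gene. The 250 bases before the RefSeq start of C1qb and C1qc are shown because these neighbours varied little over the samples, and those of P2ry12 because it was higher in the temperature-responsive group. Capitals mark matches to GAGGAA or its reverse complement TTCCTC, the core bound by PU.1, the transcription factor that directs macrophage and microglia identity. The sequences are from RefSeq on GRCm38.p6, 5′ to 3′ on the minus strand, at chr4:136886201-136886450 for C1qb, chr4:136892915-136893164 for C1qc and chr3:59262986-59263235 for P2ry12.
C1qb: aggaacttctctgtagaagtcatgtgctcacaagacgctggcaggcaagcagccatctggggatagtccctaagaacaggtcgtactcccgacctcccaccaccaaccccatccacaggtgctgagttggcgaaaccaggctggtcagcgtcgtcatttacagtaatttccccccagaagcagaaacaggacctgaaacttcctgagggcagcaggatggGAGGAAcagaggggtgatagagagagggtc
C1qc: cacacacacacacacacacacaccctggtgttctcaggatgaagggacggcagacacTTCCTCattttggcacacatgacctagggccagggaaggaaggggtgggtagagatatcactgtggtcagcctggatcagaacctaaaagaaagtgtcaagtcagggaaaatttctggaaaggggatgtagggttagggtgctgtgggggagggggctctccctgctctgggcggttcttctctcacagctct
P2ry12: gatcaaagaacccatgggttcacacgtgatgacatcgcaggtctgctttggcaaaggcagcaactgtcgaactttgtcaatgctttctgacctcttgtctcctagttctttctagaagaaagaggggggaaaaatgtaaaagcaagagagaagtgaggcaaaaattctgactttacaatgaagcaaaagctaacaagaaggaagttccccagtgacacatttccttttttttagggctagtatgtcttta
Of the 9 genes, 6 matched an entry of the promoter table (P2ry12, C1qb, C1qc, Itgam, Cx3cr1 and Trem2). A match was found in 4 of these 6 windows of 250 bases (C1qb, C1qc, Itgam and Trem2), against 23.3% of the 32851 windows in the table. The match lay 30 bases before the start in C1qb and 193 bases before it in C1qc. These are matches of letters on either strand and do not show binding.

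C1qa had 73.8, 78.1, 82.4 and 94.5 CPM in temperature-responsive and 90.8, 85.2 and 91.7 CPM in non-responsive samples. C1qb had 158, 123, 167 and 155 CPM in the former and 144, 161 and 171 CPM in the latter. C1qc had 95.7, 103.9, 95.8 and 85.4 CPM in temperature-responsive and 108, 99.3 and 90.1 CPM in non-responsive samples. A different sample was highest, and a different sample lowest, for each chain, and the groups overlapped for each. The log2 fold changes were -0.11 (standard error 0.113) for C1qa, -0.07 (0.106) for C1qb and -0.06 (0.109) for C1qc, none past the threshold (adjusted p = 0.486, 0.654 and 0.709, edgeR), and each turned positive with an offset for GC content (0.037, 0.035 and 0.048).

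The chains together made up 52.3% to 56.3% of the counts of the 9 genes in every sample. Within the trio, C1qb took 40.4% to 48.5% of the counts, C1qc 25.5% to 34.0% and C1qa 22.6% to 28.2%. Counts per kilobase of exon gave another order, with C1qb at 46.8% to 54.6%, C1qa at 26.7% to 32.7% and C1qc at 15.9% to 22.2%. Per kilobase the C chain had the lowest share in each sample. The length used was that of the merged exons of all annotated transcripts, 1931 bases for C1qc, 1040 for C1qa and 1088 for C1qb. The order of the chains depends on that choice of length.

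**Figure D2:**
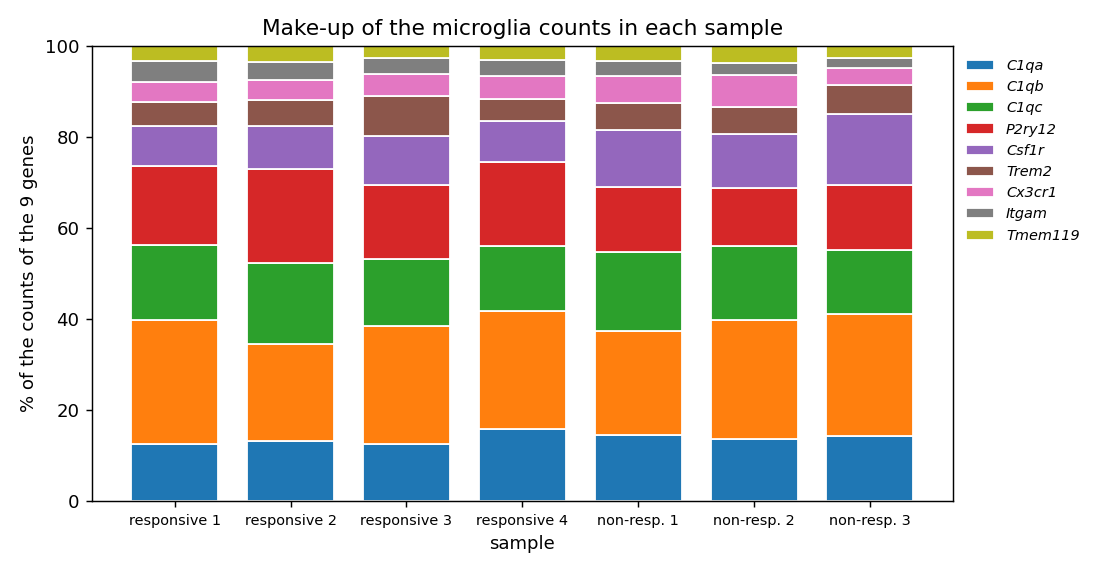
Share of each gene among the counts of the 9 microglia genes (stacked bars, percent) in each of the 7 samples. The C1q chains, at the bottom, take between 52.3% and 56.3% everywhere, while P2ry12 takes 18.2% on average in temperature-responsive and 13.8% in non-responsive samples and Csf1r 9.47% and 13.3%.

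P2ry12, the ADP receptor by which resting microglia direct their processes toward injured cells, was higher in temperature-responsive samples. It had 101, 121, 106 and 110 CPM there and 89.6, 79.0 and 91.3 CPM in non-responsive samples, from 218 to 456 counts per sample. Each temperature-responsive sample was above each non-responsive sample. Means were 109 ± 8.23 CPM (SD, n = 4) and 86.6 ± 6.64 CPM (SD, n = 3), with a log2 fold change of 0.34 ± 0.107 (SE, edgeR adjusted p = 0.0203). The gene lies at chr3:59216272-59262871 on the minus strand, and the GC content of its longest transcript, 38.6%, is below that of all but 2.86% of the genes tested. With the GC offset its log2 fold change was 0.019 (adjusted p = 0.923, edgeR), when 24.6% of all genes passed. Without temperature-responsive replicate 2 or non-responsive replicate 2 the adjusted p was 0.0637 and 0.119 (edgeR). In all, P2ry12 did not pass in 7 of 18 alternative fits. Among these were library size only (adjusted p = 0.0540, edgeR) and the fit of every gene with a count (adjusted p = 0.128, edgeR).

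Csf1r, the receptor tyrosine kinase for CSF1 and IL-34 on which microglia depend, was lower in temperature-responsive samples. It had 50.2, 55.4, 69.0 and 54.5 CPM in these and 78.8, 73.4 and 98.5 CPM in non-responsive samples. Each temperature-responsive sample was below each non-responsive sample, and the means were 57.3 ± 8.14 CPM (SD, n = 4) and 83.5 ± 13.2 CPM (SD, n = 3). The log2 fold change was -0.54 ± 0.135 (SE, edgeR adjusted p = 0.00454), and it was -0.50 with the GC offset (adjusted p = 0.00829, edgeR). It passed the threshold in each of the 7 fits that left out 1 sample. Csf1r lies on chromosome 18 and shares 15.1% of its exonic bases with Hmgxb3 on the other strand, so its counts from these bases are uncertain.

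The ratio of P2ry12 counts to Csf1r counts lay between 1.54 and 2.17 in temperature-responsive and between 0.927 and 1.14 in non-responsive samples. These genes were paired for their opposite calls, so that the ratio is a description, and the part of P2ry12 rests on a difference that was 0.019 with the GC offset.

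Itgam encodes the αM chain of complement receptor 3, which binds fragments of C3 on tagged material. It had 26.5, 23.7, 22.5 and 22.1 CPM in temperature-responsive and 21.0, 15.8 and 12.8 CPM in non-responsive samples, from 44 to 84 counts. The groups did not overlap, but the log2 fold change of 0.53 (standard error 0.209) missed the threshold (adjusted p = 0.0550, edgeR). It passed without non-responsive replicate 1 (adjusted p = 0.0163, edgeR), with upper quartile normalization (adjusted p = 0.0353, edgeR) and with at least 10 counts required in every sample (adjusted p = 0.0435, edgeR). Itgam lies at chr7:128062640-128118491 on the plus strand, and 68.7% of its exonic bases also lie in the gene model Gm49368 on that strand, so its counts are uncertain.

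Cx3cr1, the receptor for the neuronal chemokine fractalkine, had 26.5, 25.3, 31.6 and 29.2 CPM in temperature-responsive and 38.0, 43.8 and 25.02 CPM in non-responsive samples. Non-responsive replicate 3 was the lowest of all 7 and the other non-responsive samples were the highest. The log2 fold change was -0.33 ± 0.185 (SE, edgeR adjusted p = 0.181), and without non-responsive replicate 3 it was -0.54 and passed (adjusted p = 0.0324, edgeR). The gene lies at chr9:119901616-120069879 on the minus strand.

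Trem2, the lipid-sensing receptor of phagocytic microglia, had 30.7, 33.4, 57.4 and 28.8 CPM in temperature-responsive and 36.5, 36.3 and 40.6 CPM in non-responsive samples. Temperature-responsive replicate 3 stood above the other 6 samples. Without it the log2 fold change was -0.29 (adjusted p = 0.221, edgeR) in place of -0.00018 ± 0.198 (SE, edgeR adjusted p = 1.00). The gene lies at chr17:48346401-48354147 on the plus strand.

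Tmem119, a transmembrane protein used to tell microglia from macrophages that enter from blood, had the lowest mean CPM of the 9. It had 19.0, 20.5, 17.1 and 17.9 CPM in temperature-responsive and 20.1, 23.0 and 17.6 CPM in non-responsive samples. Its coefficient of variation over the 7 samples, 10.6%, was below the 13.3% that counting error alone would give at 38 to 122 counts. The log2 fold change was -0.13 ± 0.199 (SE, edgeR adjusted p = 0.662). The gene lies at chr5:113793729-113800516 on the minus strand.

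**Figure D3:**
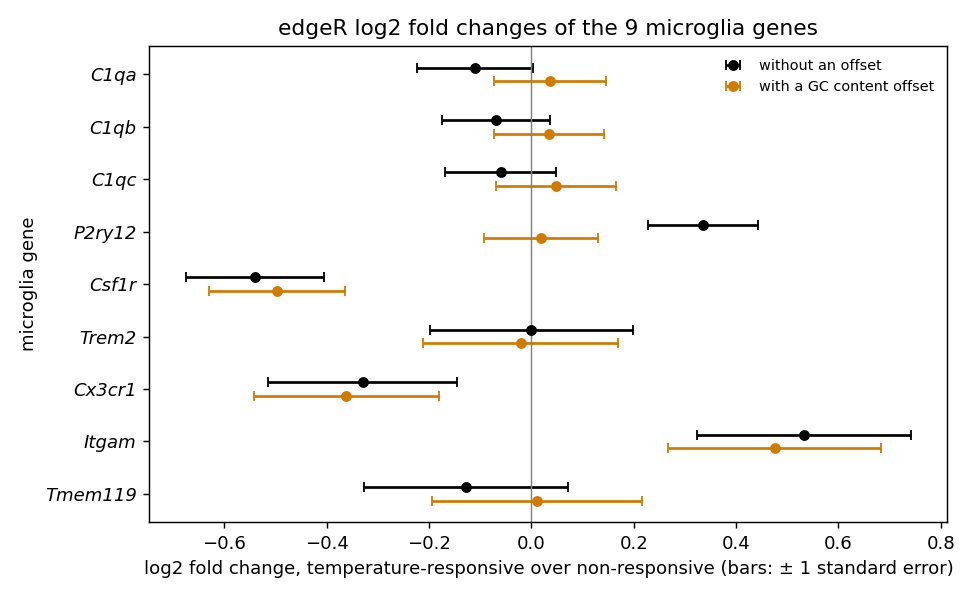
Log2 fold change of each microglia gene, temperature-responsive over non-responsive, with 1 standard error to either side, from edgeR without (black) and with (orange) an offset for GC content. P2ry12 moves from 0.34 to 0.019 with the offset, whereas Csf1r stays near -0.5.

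Per kilobase of exon, the levels over the 7 samples ran from C1qb at 142 ± 14.9 CPM per kilobase (SD, n = 7) through C1qa at 81.9 ± 7.32, C1qc at 50.2 ± 4.03 and P2ry12 at 39.1 ± 5.50 to Csf1r at 11.9 ± 2.94. Tmem119 (8.34 ± 0.883), Trem2 (7.62 ± 1.93), Cx3cr1 (6.96 ± 1.59) and Itgam (4.11 ± 0.940, all CPM per kilobase, SD, n = 7) followed. The ranges of C1qc and P2ry12 overlapped, as did those of Csf1r and Tmem119. Within each sample, however, C1qc was above P2ry12 and Csf1r above Tmem119. The ranges of Tmem119, Trem2 and Cx3cr1 also overlapped, and their order differed between samples, so that it is not resolved. The other neighbours in this order did not overlap in range.

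A shared rise and fall of the 9 genes from sample to sample was not seen. No sample held more than 2 of the 9 highest or 2 of the 9 lowest values. Counting error limits this view most for Tmem119, C1qa and C1qc. Their coefficients of variation were 10.6%, 8.93% and 8.03%, beside 13.3%, 6.29% and 5.97% for counting error alone. The other members varied further above counting error. The steadiest pair was Tmem119 and C1qc, whose log2 ratio had an SD of 0.122 over the 7 samples, and the least steady was Csf1r and Itgam, at 0.688. No correlation over the samples is given, because these fall into 2 separate groups of 4 and 3.

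The spread of 5 of the 9 genes over the 7 samples was below the median of the genes in the same range of abundance. The SD of log2 CPM was 0.116 for C1qc, 0.130 for C1qa, 0.145 for Tmem119, 0.160 for C1qb and 0.204 for P2ry12, beside a median of 0.239 over the 7681 genes with means between 19.3 and 154 CPM. Cx3cr1 (0.305), Trem2 (0.323), Csf1r (0.344) and Itgam (0.355) lay above that median. In distance from the mean profile of the 9 genes (root mean square difference of centred log2 CPM over 7 samples), C1qc was the nearest member at 0.095 and Itgam the farthest at 0.342. Among the nearest genes outside all lists were Mcur1 at 0.037, Sugt1 at 0.041, and Senp2 and Chn1 at 0.042, of 11108 genes with at least 10 CPM, and these too were nearly level over the samples (52.9 to 59.9 CPM for Mcur1).

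Of a further 24 microglia genes, 7 passed (29.2%, against 30.0% of all genes tested). Of these, 4 were higher (Aif1, Sall1, Cd53 and Fcer1g, named here after their values were seen) and 3 lower (Spi1, Selplg and, likewise, Laptm5) in temperature-responsive samples, 17 of the 24 did not pass, and the median log2 fold change was 0.01. Of 18 alternatives, Sall1 and Cd53 did not pass in 4 each and Laptm5 in 8. Ctss, a lysosomal protease of microglia and the most abundant of the list, had 233 to 240 CPM in temperature-responsive and 187 to 220 CPM in non-responsive samples (log2 fold change 0.20, adjusted p = 0.105, edgeR).

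Spi1, which encodes PU.1, had the largest change of the 24. It had 8.36, 8.61, 8.35 and 9.49 CPM in temperature-responsive and 14.4, 28.0 and 32.2 CPM in non-responsive samples, without overlap. The log2 fold change was -1.53 ± 0.256 (SE, edgeR adjusted p = 0.000251) and ran from -1.78 to -0.77 over 18 alternatives, and it missed the threshold in 1 of them, the edgeR fit that took detected genes as a covariate (adjusted p = 0.395). Selplg, a selectin ligand of microglia and leukocytes, had 22.6 to 31.9 CPM in temperature-responsive and 45.5 to 61.5 CPM in non-responsive samples (log2 fold change -0.99, adjusted p = 0.000204, edgeR).

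**Figure D4:**
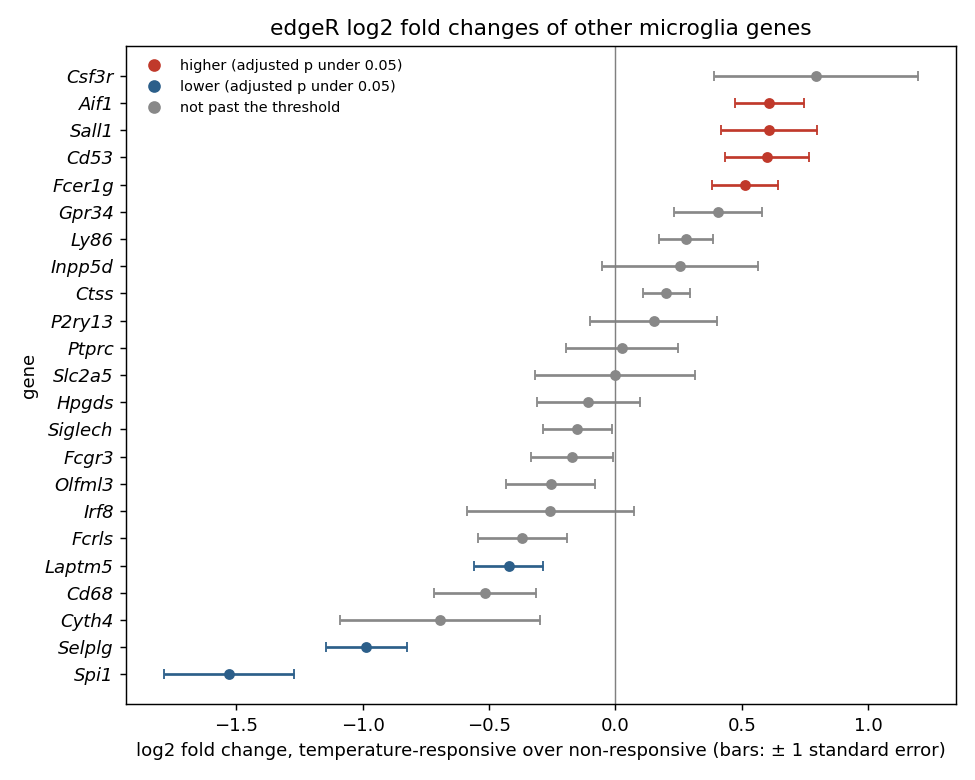
Log2 fold changes of the other microglia genes, temperature-responsive over non-responsive, with 1 standard error to either side, from edgeR (1 of the 24, which did not pass, is not shown). Red marks the 4 genes that were higher, blue the 3 that were lower and grey those that did not pass the threshold.

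Partners of the 9 genes were tested as a list of 11, of which 9 could be tested, and 1 was higher and 2 were lower (33.3%, against 30.0% of all genes). Tyrobp, the adaptor through which TREM2 signals, had 124, 126, 123 and 106 CPM in temperature-responsive and 88.7, 69.8 and 62.2 CPM in non-responsive samples. Its log2 fold change of 0.71 ± 0.121 (SE, edgeR adjusted p = 0.000276) stood beside that of -0.00018 for Trem2 itself. Cx3cl1, the neuronal ligand of CX3CR1, had 113, 136, 144 and 154 CPM in the former and 181, 201 and 222 CPM in the latter (log2 fold change -0.56, adjusted p = 0.000666, edgeR). Il34, a CSF1R ligand made by neurons and named here after its values were seen, was lower as well (log2 fold change -0.54, adjusted p = 0.0178, edgeR), but did not pass in 5 of 18 alternatives, among them those without temperature-responsive replicate 2 and without non-responsive replicate 2 or 3.

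Of 11 genes of the complement cascade beyond C1q, 10 could be tested and 1 of these was higher, against 15.1% of all genes, with a median log2 fold change of 0.32. The count was 2 with upper quartile normalization, when every gene with a count was tested and without temperature-responsive replicate 1, and 3 where every sample had to reach 10 counts. Cd59a, which blocks the membrane attack complex, had 31.6 to 65.9 CPM in temperature-responsive and 25.4 to 42.3 CPM in non-responsive samples (log2 fold change 0.29, adjusted p = 0.332, edgeR).

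Each of the 14 other gene lists had a wider range of sums over the samples than the 9 microglia genes, from 1.19-fold for the other microglia genes to 16.1-fold for leukocyte genes. Several were close to the microglia genes: precursors (1.20-fold), neurons (1.22-fold), astrocytes (1.23-fold) and partners (1.23-fold). The leukocyte sum was as low as 1.20 CPM, in non-responsive replicate 3, so that its range rests on few counts. The endothelial and pericyte list of 9 genes summed to between 135 and 403 CPM in temperature-responsive and between 37.2 and 103 CPM in non-responsive samples, a 10.8-fold range against 1.12-fold for the microglia genes. In that list 6 of 9 genes were higher and none lower (66.7%, against 15.1% of all genes that were higher), by up to 2.04 on the log2 scale for Pecam1, an adhesion molecule of endothelium (adjusted p = 0.00132, edgeR), and 1.95 for Tek, the angiopoietin receptor (adjusted p = 0.00449, edgeR). Without non-responsive replicate 3 the count was 3, and Kcnj8 and Rgs5, named here after their values were seen, did not pass in 12 and 7 of 18 alternatives. The most abundant, Ly6c1 and Slco1a4, did not pass (log2 fold changes 2.06 and 1.95, adjusted p = 0.117 and 0.0918, edgeR). Border macrophages, which share many genes with microglia but lie along vessels and meninges, were represented by 8 genes, of which 5 could be tested. Of these 5, 3 were higher (60.0%, against 15.1% of all genes that were higher). They were Mrc1, Pf4 and Stab1, with log2 fold changes of 1.16, 1.61 and 1.07 (adjusted p = 0.0375, 0.0275 and 0.00863, edgeR). Mrc1 rested on 9 to 23 counts and did not pass in 11 of 17 alternatives, and Pf4 rested on 2 to 24 counts and did not pass in 6 of 17. The count was 1 with the replicate block and without temperature-responsive replicate 2, 3 or 4 or non-responsive replicate 3. Where every sample had to reach 10 counts it was also 1, but only 1 of the genes was then tested. These 8 genes summed to 33.4 to 60.8 CPM in temperature-responsive and 11.4 to 27.3 CPM in non-responsive samples, without overlap, and Ms4a7, named here after its values were seen, was at 0 in non-responsive replicate 3. The part of border macrophages in the levels of the 9 genes was not tested.

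The sum of the 9 microglia genes was 960.2% to 1739% of that of the border macrophage genes in temperature-responsive and 2299% to 5596% in non-responsive samples, without overlap. Against 9 astrocyte genes it was 19.2% to 22.9% and 22.0% to 25.9%, and against 8 oligodendrocyte genes 11.6% to 16.99% and 16.2% to 19.6%, with overlap in both. Over all genes tested, 30.0% passed, with 15.1% higher and 14.9% lower. Astrocyte genes were higher in 3 cases and lower in 1 case of 9 (44.4% passing). Gja1 was at 0.63 and Gfap at -1.01 on the log2 scale (adjusted p = 0.000452 and 0.000365, edgeR). The most abundant, Slc1a2 and S100b, were at 0.03 and 0.34. Oligodendrocyte genes were higher in 4 cases (among them Mbp, 0.41, and Cldn11, 0.74) and lower in 1 of 8 (62.5% passing). The lower one was Mobp, named after its values were seen. That count of 5 was 2 with the GC offset and 3 without temperature-responsive replicate 2 or non-responsive replicate 2 or 3, and Mbp did not pass in 5 and Mobp in 10 of 18 alternatives. None of 5 precursor genes passed in edgeR or DESeq2 (0 at an unadjusted p under 0.05 in either, with Olig1 at 0.08 and Pdgfra at 0.05 on the log2 scale). Of 7 ependymal and choroid plexus genes, 1 was higher (14.3% passing). This was Ttr, at 0.31, which did not pass in 10 of 18 alternatives, beside Kl at 0.10. Of 9 neuron genes 2 were higher and 3 lower (55.6% passing), with Snap25 at 0.50, Rbfox3 at -0.38 and Syt1 at -0.08. With the GC offset none of the neuron genes was higher and 2 were lower, with Snap25 at 0.18 (adjusted p = 0.232, edgeR), and 3 of the 9 passed without non-responsive replicate 2 or 3. With detected genes as a covariate, no gene of any of these lists passed. Of 10 leukocyte genes none reached the counts needed for a test, and their sum was 9.44 to 19.4 CPM in temperature-responsive and 1.20 to 6.29 CPM in non-responsive samples, led by Ms4a1 and Plac8 at no more than 9 counts. The globin genes Hba-a1, Hba-a2, Hbb-bs and Hbb-bt were listed at 0 in each sample, and they come in near-identical pairs whose reads the counting may have left out, so that Alas2 alone of 5 erythrocyte genes was tested (log2 fold change -0.87, adjusted p = 0.101, edgeR).

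**Figure D5:**
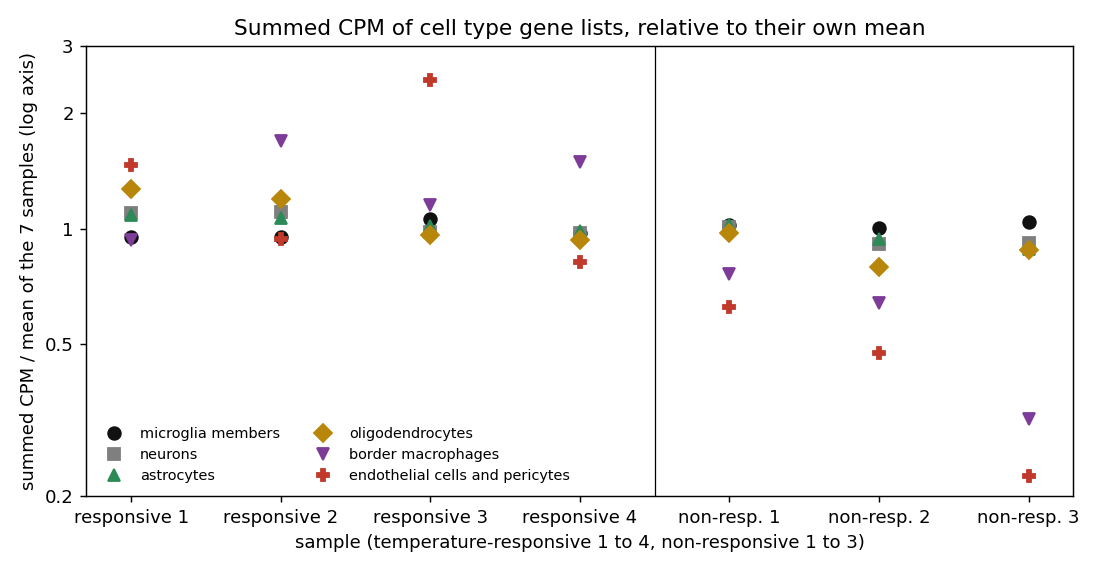
Summed CPM of 6 gene lists in each of the 7 samples, divided by the mean of that list over the samples (log axis), with temperature-responsive samples to the left of the line. The microglia genes lie within 581 to 649 CPM throughout, while the endothelial and pericyte list runs from 37.2 to 403 CPM.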

How the data were processed

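Counts of 4 temperature-responsive and 3 non-responsive samples of 2 pooled neurons each were analysed. The authors aligned reads to mm10 with STAR (2.6.0 per the labels), took out PCR duplicates (RmDup), used HTSeq (0.9.1) to count reads in genes and deposited these raw counts. The annotation and strand setting are not given in the sources used here, and removal of duplicates can lower counts of abundant genes.

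From the deposited counts, 14407 genes, those that reached 10 counts in 3 or more samples, were fitted with edgeR 4.0.16 (robust quasi-likelihood test, TMM) in R 4.3.3. Tests were two-sided, p-values were adjusted over all genes tested by Benjamini-Hochberg, and the threshold was 0.05. Standard errors were the fold change (log2) over the root of its F statistic. DESeq2 1.42.0 was an alternative, and GC offsets were smooth terms per sample from mgcv 1.9.3, available for 95.4% of the genes tested. Log2 CPM used a prior count of 2. Exon lengths, GC content (of the longest transcript) and coordinates are from GENCODE M21 on the same build, which held 94.5% of the symbols. Each exon length covers the merged exons of all transcripts of the gene. Floors and counting errors cover counting only, since reads carried no molecular identifiers, and 3 counts correspond to 0.585 to 1.57 CPM.

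The 9 genes and all lists were chosen with earlier results of these data known. Genes named from the other lists are the 2 of highest mean CPM and up to 2 of largest change among those past the threshold, and the 5 genes nearest to the mean profile of the 9 genes, with any others marked. The erythrocyte genes are an exception, since all 5 are named. A few genes that this rule names are not reported here. Lists covered other microglia genes, partners, complement, activation, antigen presentation and markers of 9 other cell groups.

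On simulated counts for the same comparison, with 198 of 14581 genes changed by 1 on the log2 scale, the fit recovered 73.7% of them, and 3.95% of its calls were false. The simulation changed a far smaller share of genes than the 30.0% that passed in the data. Its changes were larger than those of P2ry12 (0.34) and Csf1r (-0.54), and it held no sample effect tied to GC content. These rates therefore need not hold for the calls above. Samples of a group differed by more than counting noise (chi-square per degree of freedom 1.96 to 5.10 over 13602 genes) and were counted separately. The correlation of deviations between same-numbered samples of the groups was -0.128, -0.0618 and 0.0316, so that the numbers were not taken as pairs. Alternatives were other tests, normalizations and filters, thinning to 1914497 counts, detected genes as a covariate, a block for the replicate number and leaving out each sample.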

Additional observations from a re-analysis of the deposited data

Results flagged for a closer look

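Of 11 measures checked for a temperature-responsive sample far from the others of that group, 1 stood out. Chance gives about 1 in 20 for each measure, so that 1 flag among 11 measures can arise by chance. Non-responsive samples were not checked in this way. Trem2 in temperature-responsive replicate 3 (57.4 CPM) lay apart from the other 3 temperature-responsive samples (30.9 ± 2.30 CPM, SD, n = 3), and the gap divided by the range was 0.840.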

How the results depend on the processing

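The sum of the 9 genes kept its sign (log2 ratio -0.057) in all of its 15 alternatives but upper quartile normalization (0.0094). It was -0.12 for library size only, and ranged from -0.094 to -0.040 with each sample left out. The sum was not taken with DESeq2, with the GC offset (alone or with the replicate block) or with detected genes as a covariate. The number of the 9 genes past the threshold was 2, and was 1 with library size only, 1 when every gene with a count was tested, 1 with the GC offset, 1 with that offset plus the replicate block, 0 with detected genes as a covariate, and 1 to 3 with each sample left out. It was 3 with upper quartile normalization and 3 where every sample had to reach 10 counts. Over all genes, 4327 passed (2176 higher, 2151 lower), 1 with detected genes as a covariate and 2620 (without non-responsive replicate 3) to 4583 with each sample left out. The share of higher calls fell or rose by over 10 percentage points with upper quartile normalization (2634 higher, 1608 lower) and the GC content offset (1336 higher, 2203 lower). With the replicate block, 4124 genes and 2 of the 9 passed, and the log2 ratio of the sum was -0.055. The causes were not tested.

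P2ry12, higher by 0.34 and past the threshold, turned to -0.0023 with the replicate block with GC content offset. Among genes that did not pass, Tmem119 was 0.011 and 0.084, C1qa 0.037 and 0.0012, C1qb 0.035 and 0.047, and C1qc 0.048 and 0.137 with the GC content offset without and with the replicate block. C1qb was 0.189 with detected genes as a covariate and C1qc 0.0058 with upper quartile normalization. Trem2 was 0.0031 with DESeq2, 0.0068 with median-ratio size factors, 0.065 with upper quartile scaling, 0.024 where every sample had to reach 10 counts, 0.026 with thinning, 0.251 with that covariate, 0.076 with the replicate block and 0.066 with that block and the GC offset. With each sample left out, log2 fold changes ran from -0.293 to 0.127 for Trem2, from -0.130 to 0.016 for C1qb and from -0.126 to 0.0038 for C1qc.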

Other observations

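Of 19 genes of microglial activation, 18 could be tested, 4 were higher in temperature-responsive samples (22.2%, against 15.1% of all genes), namely Apoe, Axl, Ccl2 and Ccl4 (the last named after its values were seen, and not past the threshold in 13 of 18 alternatives), none was lower (edgeR), and the median log2 fold change was 0.14. The count was 2 with thinning, with the GC offset and without temperature-responsive replicate 2 or 3 or non-responsive replicate 1, 1 without non-responsive replicate 3 and 6 without temperature-responsive replicate 1. Apoe, a lipid carrier that astrocytes also make, had 526 to 577 CPM in temperature-responsive and 361 to 524 CPM in non-responsive samples (log2 fold change 0.42, adjusted p = 0.00785, edgeR), and did not pass without non-responsive replicate 2 or 3. The chemokine Ccl3 had 109 to 144 CPM in the former and 126 to 143 CPM in the latter (log2 fold change -0.05, adjusted p = 0.771, edgeR). Axl, a receptor for tagged dying cells, had 52.7 to 66.8 and 39.2 to 44.3 CPM (log2 fold change 0.54, adjusted p = 0.00471, edgeR). Ccl2, a chemokine that attracts monocytes, changed by 0.64 on the log2 scale (edgeR adjusted p = 0.0309) and did not pass with the GC offset (adjusted p = 0.104, edgeR). Il1b, at 2 to 15 counts per sample, was not tested, whereas Il1a had 93.5 to 146 CPM, and both were named after their values were seen.

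Of 7 antigen presentation genes, 1 was higher and 1 lower (28.6%, against 30.0% of all genes). B2m, the light chain of class I molecules in many cell types, had 249 to 317 CPM in temperature-responsive and 168 to 227 CPM in non-responsive samples (log2 fold change 0.62, adjusted p = 0.000419, edgeR). Cd74, the class II invariant chain, had 8.82 to 16.3 and 16.4 to 30.3 CPM (log2 fold change -0.93, adjusted p = 0.00590, edgeR). H2-K1, a class I heavy chain, had 51.1 to 71.9 and 48.2 to 64.4 CPM (log2 fold change 0.10, adjusted p = 0.620, edgeR).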
